A study of Trichoderma cf. simile with 24 samples.

Results

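Phenetole cultures of Trichoderma cf. simile WF8, a filamentous fungus, were compared with control cultures 3 days after the compound was added. The comparison took the 3 day 3 phenetole flasks and the 3 day 3 control flasks, 6 of the 24 libraries of the series. It covered the 10842 of 13298 listed loci that passed a filter on reads over all 24 libraries. A tested locus could therefore have few reads in the 6 compared. The strain is a wild isolate from decaying wood near a coal mine, and every group was mycelium of that strain from shaken liquid culture. Each flask held 100 mL of Sabouraud maltose broth and had grown for 60 h at 29 °C in the dark before addition. Phenetole flasks received 200 mg/L of the neat liquid. The labels also list copper, manganese and veratryl alcohol as additions, and nothing in them says whether the control flasks received these, or dichloromethane. The series also sampled both groups at day 1, and it includes flasks given 10 mg/L 4-phenoxybenzoic acid or 5 mg/L 9,10-dibutoxyanthracene from stocks in dichloromethane. Phenetole flasks received no such solvent, so values of those cultures set beside phenetole differ in dose and in solvent.

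Phenetole is ethoxybenzene, a benzene ring joined to an ethyl group through an ether oxygen. Bonds of this alkyl aryl ether kind occur in lignin and in lignite, the brown coal that forms from plant matter. Fungi are known to attack such aromatics with extracellular laccases and peroxidases and, inside the cell, with cytochrome P450 monooxygenases that can remove the alkyl group. The deposited files pair none of the locus IDs with a name or a function. Lists of oxidases, cytochrome P450s, transferases, ring-opening dioxygenases, transporters and conidiation regulators could therefore not be scored, the label mycelium could not be checked against markers, and loci are given by ID and length.

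Total counts ranged from 17152629 to 19099795 in the phenetole libraries and from 18271484 to 19570576 in the control libraries, and these totals set the counting precision. Between 11212 and 11420 loci had a count with phenetole, against 11270 to 11560 in the control. The libraries did not fall cleanly by group. Phenetole flask 1 correlated at 0.967 with control flask 1 (Pearson's r of log2 CPM across the tested loci), above its 0.961 and 0.962 with phenetole flasks 2 and 3. Control flask 3 correlated at 0.941 and 0.957 with the other control flasks, which correlated at 0.973 with each other. Genes are not independent replicates, so these values describe the libraries only. CPM here are counts scaled to library size with TMM factors (trimmed mean of M values), and log2 changes are phenetole over control with ± SE.

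At day 3 a small share of the transcriptome passed the test. By edgeR's quasi-likelihood F test, 371 of 10842 loci had an adjusted p under 0.05 (Benjamini-Hochberg), 3.42% of those tested, of which 165 rose (1.52%) and 206 fell (1.9%). Rises had a median log2 change of 1.55 and falls one of -2.23, while the median over all tested loci was -0.01. Among the called loci, falls were the larger changes, with 127 of 206 at least 4-fold and 52 at least 8-fold, against 53 and 18 of the 165 rises. More fallers (131) than risers (56) lay below the median level, and the part of level in these sizes was not tested. The phenetole and control libraries did not overlap at 344 of the called loci, and at 2791 of all tested loci (25.7%). Together the loci that rose took 2.02%, 2.95% and 3.21% of all counts in phenetole flasks 1 to 3, against 0.953%, 0.868% and 0.759% in the control flasks. Those that fell took 0.742%, 0.725% and 0.642% with phenetole, against 2.04%, 3.0% and 2.32% in the control. These shares describe loci that the test selected and are no further evidence. In phenetole flask 1 the rising loci stood a median of 1.05 log2 units above the control mean, against 1.58 and 1.82 in flasks 2 and 3, so the flask that most resembled a control library also showed the smallest rise.

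**Figure D1:**
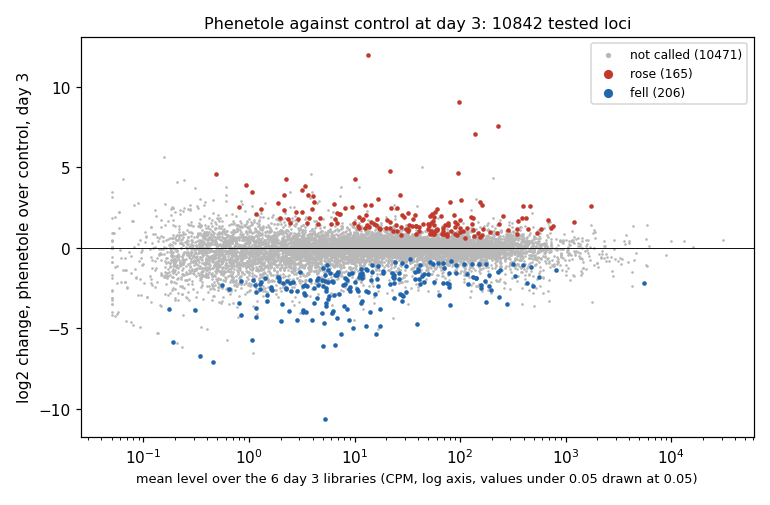
Fitted log2 change, phenetole over control at day 3, against the mean level over the 6 libraries (CPM, log axis); each point is a locus, red for the 165 that rose, blue for the 206 that fell. The called loci lie over the whole range of levels, and the falls reach further from 0 than most of the rises.

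How many loci passed depended on single flasks and on the fit. Without phenetole flask 3 the test called 84 loci, without phenetole flask 2 it called 140, without control flask 2 it called 101, and without control flask 3 it called 222. Leaving out phenetole flask 1, the one closest to the control, gave 466. Deviations from the group means correlated weakly between flasks of the same number (r = 0.13 to 0.3), which was not tested. With the flask number as a block the test called 610 loci, 249 that rose and 361 that fell. A fit to the 6 compared libraries alone called 11, although 1993 loci then had an unadjusted p under 0.05. Across 16 such alternatives, 108 of the 371 loci were called in at least 12, 46 of them risers and 62 fallers. Only 4 were called in all 16, and each of them rose.

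**Figure D2:**
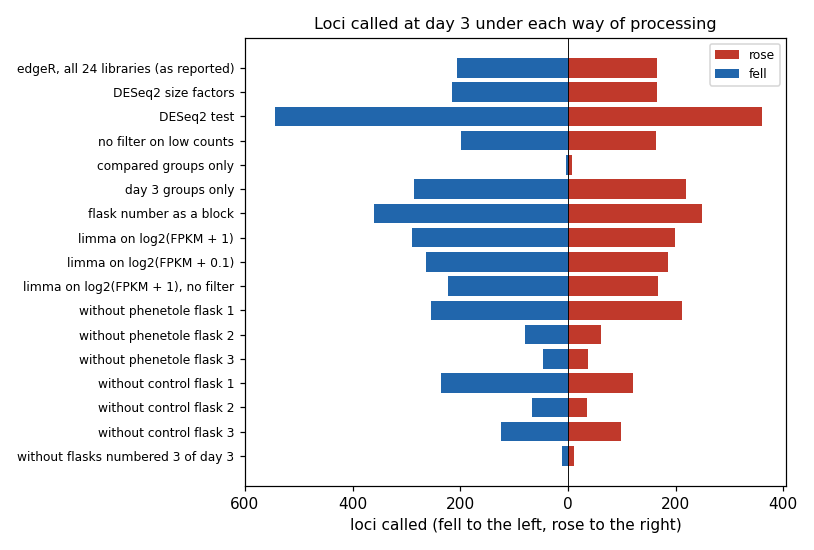
Number of loci called at day 3 under each way of processing, rises to the right of 0 and falls to the left. The count as reported is 165 and 206, and the shortest bars are the fit to the compared groups only and the fit without flasks numbered 3 of both groups.

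The largest rises lay in 3 loci with consecutive numbers, Trisim1_006099 (462 bp), Trisim1_006100 (384 bp) and Trisim1_006101 (4518 bp). Trisim1_006099 stood at 18.1, 21.9 and 40.3 CPM in the phenetole flasks, against 0 counts in all 3 control flasks, so it was at least 505.7-fold higher (floor of 3 counts over the control group; adjusted p = 0.00251, edgeR). Trisim1_006100 stood at 140.9, 211.6 and 235.9 CPM with phenetole, against 0.13, 0.783 and 0.138 CPM in the control, a 530-fold ratio of pooled counts with a log2 change of 9.07 ± 1.1 (adjusted p = 0.00029, edgeR). Trisim1_006101 stood at 346.1, 256.4 and 747.2 CPM with phenetole, against 0.953, 3.72 and 2.42 CPM in the control, a 193-fold ratio with a log2 change of 7.58 ± 0.78 and the smallest adjusted p of the comparison (4.01e-05, edgeR). At each of the 3 loci every phenetole flask lay more than an order of magnitude above every control flask. Per length, Trisim1_006100 was the most abundant with phenetole, at a mean of 497.9 FPKM in the deposited values, against 97.3 for Trisim1_006101 and 56.6 for Trisim1_006099.

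The fourth locus that held in every alternative was Trisim1_006832 (1383 bp), which was singled out for that after its values were seen. It stood at 190.5, 322.2 and 324.0 CPM with phenetole, against 37.1, 42.2 and 50.7 CPM in the control, 6.44-fold higher (log2 change 2.69 ± 0.36, adjusted p = 0.000663, edgeR). Flask 1 was the lowest phenetole flask, and it too lay well above the control flasks.

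In the other cultures of day 3 these loci divided. With 4-phenoxybenzoic acid Trisim1_006101 stood at 21.8, 120.5 and 184.5 CPM, Trisim1_006100 at 2.37, 92.4 and 56.9 CPM, and Trisim1_006099 at 0.0816, 11.8 and 7.27 CPM. Phenetole over 4-phenoxybenzoic acid gave log2 differences of 2.05 (95% interval 0.79 to 3.3; adjusted p = 0.0612), 1.96 (0.38 to 3.53; adjusted p = 0.162) and 2.07 (0.18 to 3.96; adjusted p = 0.223) in the order above, and none passed the edgeR test. That comparison called 3.76% of all loci. With 9,10-dibutoxyanthracene all 3 loci were near 0, at no more than 0.56 CPM in any flask, and each was higher with phenetole (adjusted p at most 0.000149, edgeR), in a comparison that called 39.1% of all loci. Trisim1_006832 was higher with phenetole than with either, by 2.23 ± 0.36 on the log2 scale over 4-phenoxybenzoic acid (adjusted p = 0.00345, edgeR) and by 4.2 ± 0.39 over 9,10-dibutoxyanthracene (adjusted p = 1e-06). The doses and the solvent differed between these cultures.

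The deepest fall was that of Trisim1_003216 (1604 bp). It had 0 counts in all 3 phenetole flasks, against 4.46, 22.6 and 4.21 CPM in the control, so it was at least 211-fold lower (floor of 3 counts over the phenetole group; adjusted p = 0.0054, edgeR). It was the only locus with 0 counts in every phenetole library and at least 10 in each control library, as Trisim1_006099 was the only one with the reverse. With 4-phenoxybenzoic acid it stood at 0.449, 2.61 and 1.61 CPM and with 9,10-dibutoxyanthracene at 8.96, 4.11 and 4.74 CPM. Phenetole was lower than both (adjusted p = 0.0352 and 0.000749, edgeR). Trisim1_003502 (6492 bp) stood at 0.0442, 0.0555 and 0.329 CPM with phenetole, against 0.996, 17.5 and 11.2 CPM in the control, 68.9-fold lower (log2 change -6.09 ± 1.16, adjusted p = 0.00604, edgeR). The phenetole flasks held 8 counts of it in all. Its call was lost in 4 of 16 alternatives, among them limma on log2(FPKM + 1) (adjusted p = 0.0564). Control flask 1 was far below the other control flasks for this locus and still above every phenetole flask, as the rule for naming loci required. Its level was also low with 4-phenoxybenzoic acid (0.514 to 1.09 CPM) and with 9,10-dibutoxyanthracene (0.168 to 1.01 CPM), and phenetole did not pass the test against either (log2 difference -2.47, 95% interval -4.86 to -0.07, and -1.64, interval -4.2 to 0.92).

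Measured by the difference in mean CPM, which weighs abundant and long transcripts most, other loci led. Trisim1_005795 (2473 bp) stood at 913.0, 1822.7 and 2684.6 CPM with phenetole, against 437.6, 538.1 and 804.4 CPM in the control, 3.08-fold higher (log2 change 1.61 ± 0.39, adjusted p = 0.0271, edgeR). Its call was lost without phenetole flask 2 or 3 or control flask 1 or 2 (adjusted p 0.0733 to 0.162). Trisim1_002588 (894 bp) stood at 578.7, 1144.2 and 1403.2 CPM with phenetole, against 346.1, 311.7 and 306.7 CPM in the control, 3.11-fold higher (log2 change 1.7 ± 0.32, adjusted p = 0.0054), and kept its call without any single flask. Phenetole flask 1 was the lowest of the 3 at both loci.

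Trisim1_009042 (4009 bp), among the most abundant transcripts of these cultures, fell. It stood at 1338.2, 2362.7 and 2313.5 CPM with phenetole, against 5547.3, 11645.9 and 9722.3 CPM in the control, 4.47-fold lower (log2 change -2.16 ± 0.6, adjusted p = 0.0475, edgeR). That call was lost without any phenetole flask and without control flask 2 or 3 (adjusted p 0.0913 to 0.147), while the log2 change stayed between -2.41 and -1.93. Trisim1_004098 (588 bp) stood at 379.5, 644.7 and 316.0 CPM with phenetole, against 836.0, 960.1 and 1758.0 CPM in the control, 2.52-fold lower (log2 change -1.41 ± 0.39, adjusted p = 0.0458, edgeR). Without phenetole flask 1 or 3 or control flask 2 or 3 its adjusted p was 0.0848 to 0.194. Neither locus passed the test between phenetole and 4-phenoxybenzoic acid, with log2 differences of -0.41 (95% interval -1.6 to 0.78) and 0.03 (-0.75 to 0.82). Against the dibutoxyanthracene cultures of day 3 the loci divided. Trisim1_009042 stood at a mean of 17718.7 CPM there and was lower with phenetole (log2 difference -3.14, adjusted p = 0.00066, edgeR). That comparison called 39.1% of all loci. Trisim1_004098 stood at a mean of 269.7 CPM there, below its control mean of 1184.7 CPM. For this locus phenetole did not pass (log2 difference 0.73, 95% interval -0.06 to 1.52).

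Among the falls without overlap and with enough counts, the smallest adjusted p-values belonged to a pair of short loci. Trisim1_002516 (301 bp) stood at 7.92, 14.4 and 8.06 CPM with phenetole, against 32.4, 44.1 and 35.2 CPM in the control, 3.73-fold lower (log2 change -1.88 ± 0.25, adjusted p = 0.000663, edgeR). Trisim1_000700 (207 bp) stood at 16.5, 15.6 and 5.71 CPM with phenetole, against 59.4, 274.9 and 108.0 CPM in the control, 11.5-fold lower (log2 change -3.55 ± 0.49, adjusted p = 0.000739, edgeR). Its control flasks lay far apart, and the lowest was above every phenetole flask, as the selection of falls without overlap required. Of the 16 alternatives, both lost the call only in the fit to the 6 compared libraries. Phenetole was below 4-phenoxybenzoic acid at both loci (adjusted p = 0.0302 and 0.0216, edgeR) and below 9,10-dibutoxyanthracene (adjusted p = 2.92e-06 and 0.00267).

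**Figure D3:**
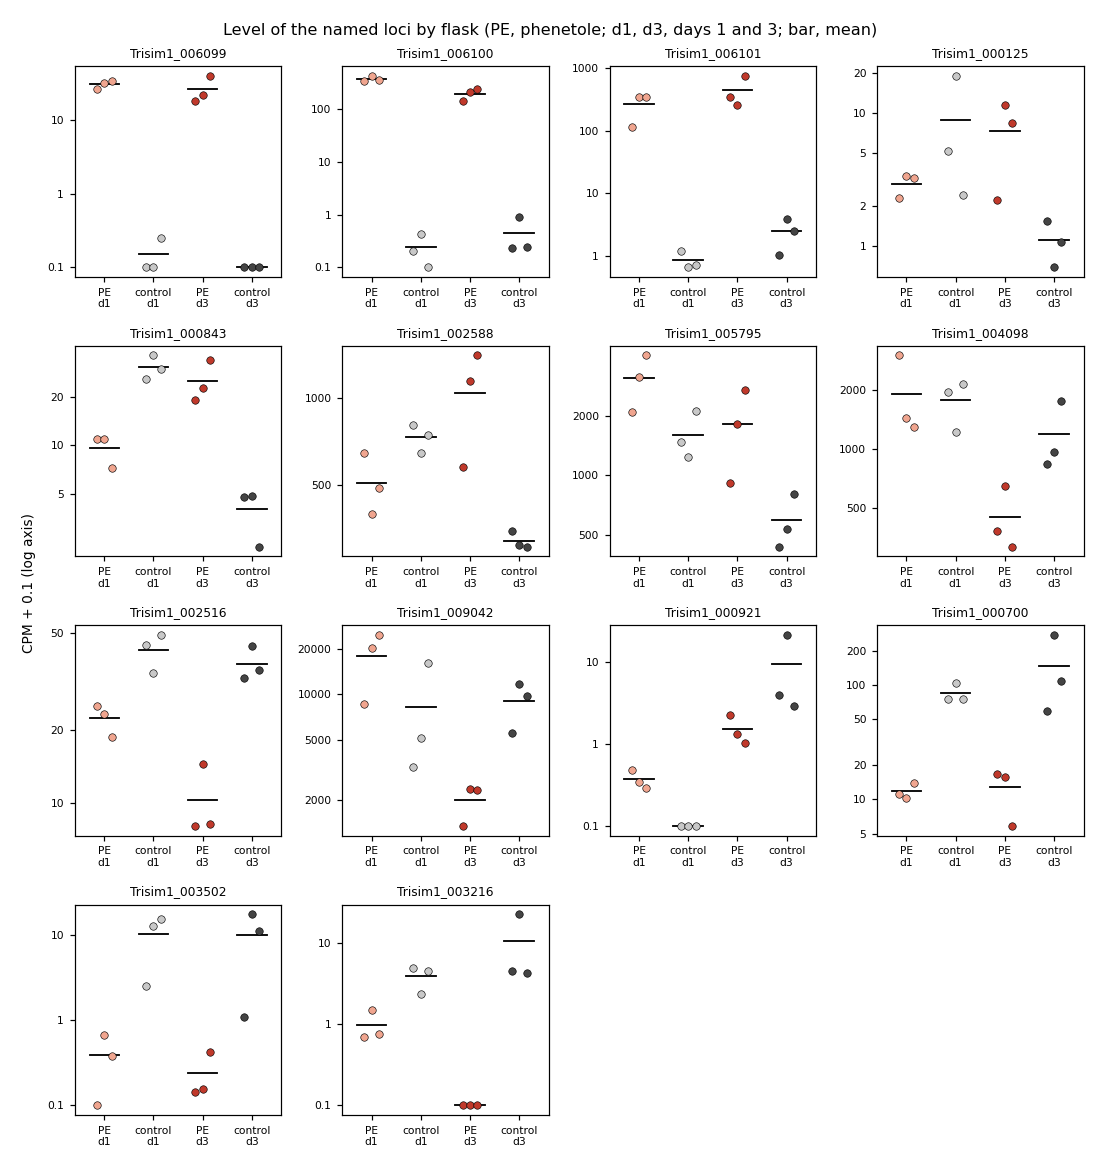
Level of 14 named loci in each flask (CPM + 0.1, log axis), with phenetole (PE) left of control at day 1 and at day 3; points are flasks 1 to 3 from left to right and bars are means. At day 3 the phenetole and control points do not overlap in any panel, because loci were named only if these groups did not overlap.

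The day 1 flasks did not enter the day 3 differences, but they shared the estimate of spread behind the day 3 calls, so the shares below are not independent of the selection. It is not stated whether 1 flask gave both samples. Of the 165 loci that rose at day 3, 102 (61.8%) were also higher with phenetole at day 1, where 46.1% of all tested loci were. At day 1, 45 of them (27.3%) passed the test as rises, against 12.3% of all loci, and 18 (10.9%) as falls, against 15.2%. Of the 206 loci that fell at day 3, 119 (57.8%) were lower at day 1, against 53.4% of all loci, and 35 (17.0%) passed the test as falls, against 15.2%, while 15 (7.28%) passed as rises, against 12.3%. Whether risers and fallers differed in these shares was not tested. Thus 102 of the risers and 156 of the fallers were called at day 3 only, which is not itself a test of a difference between days. The median day 1 log2 change was 0.25 for the risers and -0.26 for the fallers, against -0.08 over all tested loci. With the calls of DESeq2 the same-sign shares were 55.7% for risers and 49.8% for fallers. The share for risers stayed above the 46.1% of all tested loci, while that for fallers lay below the 53.4%.

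**Figure D4:**
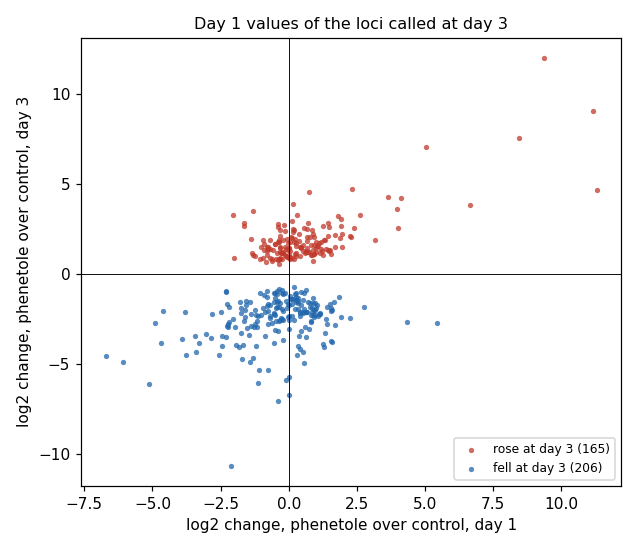
Fitted log2 change with phenetole at day 1 (horizontal) and day 3 (vertical) for the 371 loci called at day 3; red points rose and blue points fell at day 3. Most points gather around 0 on the day 1 axis, and a few risers lie far to the right.

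The 3 loci with the largest rises at day 3 were also higher at day 1 (adjusted p at most 0.000422, edgeR). Trisim1_006100 stood at 375.6 ± 42.8 CPM with phenetole and at 0.145 ± 0.172 CPM in the control at day 1, and Trisim1_006101 at 269.2 ± 133.5 and 0.76 ± 0.3 CPM (SD, n = 3 each). The change in the difference between days did not pass the test for Trisim1_006099, Trisim1_006100 or Trisim1_006101 (adjusted p = 0.601, 0.359 and 0.536, edgeR). Trisim1_003502 was lower by day 1, at 0.287 ± 0.289 CPM with phenetole and 10.1 ± 6.83 CPM in the control (adjusted p = 0.00274, edgeR). Trisim1_003216 was not called then, at 0.889 ± 0.448 and 3.84 ± 1.35 CPM (SD, n = 3 each; adjusted p = 0.153). Trisim1_006832, at 236.3 ± 60.3 CPM with phenetole and 62.6 ± 11.4 CPM in the control at day 1, had risen 3.7-fold by then (adjusted p = 0.000827, edgeR).

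For other loci the difference from the control changed between the days. Tested as the day 3 difference minus the day 1 difference, 2162 of the 10842 loci passed (19.9%), a count that also reflects what happened at day 1. Trisim1_000843 (1365 bp) turned round. At day 3 it stood at 19.0, 22.5 and 33.4 CPM with phenetole, against 4.72, 4.8 and 2.28 CPM in the control, 5.93-fold higher (log2 change 2.66 ± 0.37, adjusted p = 0.000739, edgeR). At day 1 it had stood at 9.58 ± 2.1 CPM with phenetole and 30.2 ± 5.25 CPM in the control (SD, n = 3 each; log2 change -1.65 ± 0.36, adjusted p = 0.00278). The difference between the days was 4.31 ± 0.52 log2 units (adjusted p = 0.000125, edgeR). At day 3 phenetole also lay above both 4-phenoxybenzoic acid (4.22 ± 1.7 CPM; adjusted p = 0.00149) and 9,10-dibutoxyanthracene (2.5 ± 0.319 CPM; adjusted p = 7.23e-06).

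Trisim1_000125 (2180 bp) stood at 2.12, 11.3 and 8.28 CPM with phenetole at day 3, against 1.43, 0.587 and 0.967 CPM in the control, with a log2 change of 2.85 ± 0.68 (adjusted p = 0.0255, edgeR). Its call was lost without phenetole flask 2 or 3 or control flask 2 or 3 (adjusted p 0.0673 to 0.113). At day 1 it stood at 2.84 ± 0.57 CPM with phenetole and 8.77 ± 8.91 CPM in the control, which did not pass (adjusted p = 0.0618). At day 3 phenetole passed against neither 4-phenoxybenzoic acid (adjusted p = 0.0732, edgeR) nor 9,10-dibutoxyanthracene (adjusted p = 0.222). Trisim1_000921 (2079 bp) went the other way. It stood at 2.12, 1.22 and 0.933 CPM with phenetole at day 3, against 3.81, 21.2 and 2.83 CPM in the control, with a log2 change of -2.69 ± 0.69 (adjusted p = 0.0362, edgeR). At day 1 it had 10 counts over the phenetole flasks and 0 over the control flasks, at least 4.7-fold higher (adjusted p = 0.0303). At day 3 phenetole did not pass against 4-phenoxybenzoic acid (adjusted p = 0.184, edgeR) and was lower than 9,10-dibutoxyanthracene (adjusted p = 0.00281). The day 3 call of Trisim1_000921 rests largely on control flask 2. Without that flask its adjusted p was 0.314, without phenetole flask 2 or 3 it lay at 0.13 or above, and with the flask number as a block it was 0.0534.

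Some called loci had consecutive numbers, while most lay outside such runs. No source used here says whether the numbering follows the order along the chromosomes. Among 146 risers whose next numbered locus was tested, 19 (13.0%) were followed by another riser, while 1.61% of all tested gene models rose. Among 165 such fallers, 25 (15.2%) were followed by another faller, while 1.85% of the models fell. In all, 34 risers lay in 15 runs and 44 fallers in 19 runs, and 3 and 6 of these runs held at least 3 loci.

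The longest run of risers held 4 loci, Trisim1_002006 to Trisim1_002009 (1978, 918, 2605 and 1668 bp), with log2 changes of 1.18 to 2.17 and adjusted p-values (edgeR) of 0.0202 to 0.0485. Trisim1_002008, the most abundant per length, stood at 328.1, 741.4 and 753.5 CPM with phenetole, against 220.8, 260.7 and 320.7 CPM in the control. Trisim1_002009 stood at 48.2, 220.9 and 154.2 CPM with phenetole, against 19.2, 30.2 and 53.5 CPM in the control. At Trisim1_002009, as at Trisim1_002006 and Trisim1_002007, phenetole flask 1 lay below control flask 3, so those groups overlapped. All 4 calls were lost without phenetole flask 2 or 3 and without control flask 1 or 2 (adjusted p 0.0653 to 0.173). They were also lost in the fit to the day 3 groups only (adjusted p 0.0553 to 0.0864, edgeR). Both Trisim1_002008 and Trisim1_002009 were higher with phenetole than with 4-phenoxybenzoic acid (adjusted p = 0.00465 and 0.00421, edgeR), while Trisim1_002006 and Trisim1_002007 did not pass (adjusted p = 0.405 and 0.0713). All 4 were higher with phenetole than with 9,10-dibutoxyanthracene (adjusted p at most 0.000182, edgeR), in a comparison that called 39.1% of all loci. The log2 differences there were 3.63, 3.47, 3.4 and 5.21 in the order of the numbers.

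The longest runs of fallers held 3 loci, and the one with the largest summed log2 change was Trisim1_009861 to Trisim1_009863 (1741, 1430 and 276 bp). Trisim1_009861 stood at 1.95, 0.0555 and 0.165 CPM with phenetole, against 5.59, 49.9 and 37.4 CPM in the control, 35.7-fold lower (log2 change -5.35 ± 1.01, adjusted p = 0.0056, edgeR). Trisim1_009862 stood at 0.442, 0.278 and 0.384 CPM with phenetole, against 3.16, 10.7 and 4.42 CPM in the control, 16.4-fold lower (log2 change -4.02 ± 0.62, adjusted p = 0.00204). The third, Trisim1_009863, was 9.41-fold lower (adjusted p = 0.0266), a call lost without phenetole flask 2 or 3 or control flask 2 or 3 (adjusted p 0.0699 to 0.119). All 3 were low with 4-phenoxybenzoic acid as well, at means of 1.85, 0.589 and 0.73 CPM, and phenetole did not pass the test against it (log2 differences -1.3, -0.66 and -0.05, with 95% intervals of -3.21 to 0.62, -1.94 to 0.61 and -1.74 to 1.64). With 9,10-dibutoxyanthracene the means were 3.29, 1.26 and 1.17 CPM, also below the control means of 31.0, 6.08 and 7.61 CPM. Phenetole was lower than 9,10-dibutoxyanthracene at Trisim1_009862 (adjusted p = 0.0283, edgeR). Trisim1_009861 and Trisim1_009863 did not pass that test (adjusted p = 0.0732 and 0.479). At day 1 the levels with phenetole were 3.48 ± 1.3, 1.38 ± 0.292 and 3.14 ± 1.29 CPM, against 5.95 ± 1.57, 3.19 ± 1.12 and 2.45 ± 2.16 CPM in the control (SD, n = 3 each), and none of these differences passed (adjusted p = 0.529, 0.117 and 0.741, edgeR).

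**Figure D5:**
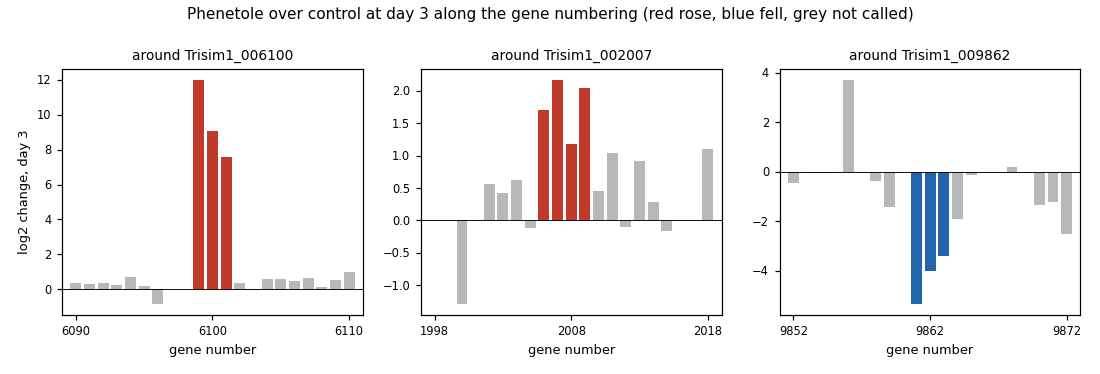
Fitted log2 change with phenetole at day 3 for tested loci in the order of their numbers, in windows around 3 runs; red rose, blue fell, grey was not called, and gaps are loci not tested. In each window the called loci stand together, and the neighbours beside them are closer to 0 except for a few loci that did not pass the test.

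Rises and falls leaned to opposite sides in level, a description with no test. The median tested locus had a mean level of 19.4 CPM over the 6 libraries. Of the 165 risers 109 lay above it, while 131 of the 206 fallers lay below it. The share called was 2.4% of the loci below 3.43 CPM, 4.5% of those between 3.43 and 19.4 CPM, 3.25% of those between 19.4 and 69.1 CPM, and 3.54% of those above. Of the fallers 17 (8.25%) and of the risers 1 (0.606%) lay outside the numbered gene models, against 5.95% of all tested loci. Median lengths were 1815 bp for risers and 1641.5 bp for fallers, against 1578 bp over all tested loci. Level and length both set how many reads a locus has, and their part in these shares was not tested.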

How the data were processed

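Poly-A RNA of mycelium gave paired reads of 150 bp, per the protocols in the labels. The authors deposited raw read counts per gene, counted with featureCounts 1.5.0-p3 per the submitters' processing notes; no source used here names the aligner, genome build, annotation or strand setting. The deposited FPKM equal these counts over gene length and over library sizes scaled with median-of-ratios factors, and 12728 of 12728 recovered lengths were whole within 0.01.

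Counts were analysed with edgeR 4.0.16 in R 4.3.3: filterByExpr (minimum count 10), TMM, and a quasi-likelihood fit to all 24 libraries in 8 groups, with a two-sided F test and Benjamini-Hochberg adjustment over all loci. Alternatives used DESeq2 1.42.0 and limma 3.58.1 on log2(FPKM + 1), and the code was tested on simulated data. Folds are ratios of pooled counts. A group at 0 was set to 3 counts; bounds and intervals of this kind cover counting error only, since reads are not independent molecules. The 95% intervals of log2 differences come from the fit and are not adjusted.

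Deviations of same-numbered phenetole and control flasks of day 3 correlated weakly (r = 0.3, 0.13 and 0.2 across loci). Between flasks of different number r was -0.28 to 0.07, and the contrast was not tested. Fits with the flask number as a block are therefore given where they change a call or count. Nothing says that flasks were independent cultures, so the p-values reflect only how far these samples spread, which may be technical.

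Named loci had to be called at day 3, with no overlap between the groups and 10 or more counts in each library of the higher one (152 risers, 184 fallers). The 2 risers and 2 fallers were taken by log2 change, by difference in mean CPM, by difference between days, and by adjusted p, with the longest run in each direction, whose members needed only to be called. The members and these rules were chosen with earlier results of these data known.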

Additional observations from a re-analysis of the deposited data

Results flagged for a closer look

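The difference between phenetole and control itself differed between days 3 and 1 at 11 of the 22 named loci. This is by the edgeR test of the day 3 difference minus the day 1 difference, which 2162 of all 10842 loci (19.9%) passed. It was positive for Trisim1_000125 (4.48 log2 units, adjusted p = 0.00386), Trisim1_000843 (4.31, adjusted p = 0.000125), Trisim1_002588 (2.22, adjusted p = 0.00323), Trisim1_002009 (1.97, adjusted p = 0.035) and Trisim1_002008 (1.39, adjusted p = 0.0244). It was negative for Trisim1_003216 (-8.53, adjusted p = 0.0187), Trisim1_000921 (-8.12, adjusted p = 0.00634), Trisim1_009861 (-4.58, adjusted p = 0.0169), Trisim1_009863 (-3.8, adjusted p = 0.0208), Trisim1_009042 (-3.29, adjusted p = 0.0101) and Trisim1_009862 (-2.82, adjusted p = 0.0199). The values for Trisim1_003216 and Trisim1_000921 are fitted against groups with 0 counts and give a direction only. Trisim1_000125, Trisim1_000843 and Trisim1_000921 were named by this test, and Trisim1_003216 in part. The others were named for their day 3 change, which is itself a term of this difference. The count of named loci is therefore no independent result. At day 1 Trisim1_009042 stood at 8643.0, 20340.8 and 24802.8 CPM with phenetole, against 3279.4, 5097.1 and 16230.0 CPM in the control, groups that overlapped.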

How the results depend on the processing

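Of 16 alternatives, the one without flasks numbered 3 was added after seeing the data. The day 3 count of 371 (165 rose, 206 fell) was 904 with DESeq2 (360 and 544), 610 with the flask number as a block (249 and 361), 11 with the compared groups only (8 and 3) and 23 without flasks numbered 3 (12 and 11). Leaving out a single library gave 84 to 466 calls, 35 to 212 rises and 46 to 254 falls. The other settings gave counts within 1.5 times of the reported ones. The 2162 loci whose difference changed between days numbered 675 with the compared groups only, 858 without flasks numbered 3, and 1230 to 2238 without a single library. With a library left out, an arm of 2 flasks shares the spread of the other groups. Over 22 named loci and 16 alternatives 86 of 352 calls were lost, and apart from Trisim1_000921 none was lost with the flask number as a block. No direction reversed. That is no further evidence, since most of these loci were named only if the groups did not overlap. The causes were not tested. Of the loci below 3.43 CPM, where counts are fewest, 2.4% were called, and the part of depth was not tested. As reported, 2144 loci had an unadjusted p under 0.05.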
